A study of Homo sapiens with 4 samples.

Results

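Claudins and the proteins that work with them in tight junctions were measured by RNA-seq in 4 libraries labelled HepG2, a human liver cancer line. A line made to express a hairpin RNA that targets the transcription factor STAT3 (STAT3 shRNA, 2 libraries) was set against a line with a control hairpin (Ctrl shRNA, 2 libraries). The 9 genes, taken by symbol from the 27452 genes of the count table, were the claudins CLDN1, CLDN3, CLDN4, CLDN7 and CLDN12, the tight junction membrane proteins OCLN and F11R, the scaffold TJP1, and EPCAM, an adhesion molecule that binds claudins. The comparison asked how lowering STAT3 changed other genes. Both groups carried a hairpin and were grown in DMEM with serum, and the labels give neither the hairpin sequences nor whether a line is 1 clone or a pool. They also do not tell whether the replicates are separate cultures, so p-values reflect only how these libraries vary, and that may be technical variation.

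Tight junctions seal the space between neighbouring epithelial cells. Claudins span the membrane and set which ions and solutes pass, occludin and the junctional adhesion molecules lie beside them, and ZO proteins tie all of these to actin. In liver, tight junctions between hepatocytes close off the bile canaliculus. EPCAM marks bile duct and progenitor cells in adult liver and many carcinomas, and it binds claudin-7 and claudin-1 at the membrane.

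The libraries held 25862027 and 17694642 reads with STAT3 shRNA and 19283150 and 20133064 reads with Ctrl shRNA. STAT3 had 34.7 and 36.1 CPM (reads scaled to library size with TMM factors) in the STAT3 shRNA libraries, against 245.03 and 244.3 CPM in the Ctrl shRNA libraries, a 6.91-fold fall. Those markers of the labelled tissue that were analysed were scarce or close to absent. Albumin (ALB) had 0 and 3 reads with STAT3 shRNA and 0 and 0 with Ctrl shRNA, and APOA1, a major liver apolipoprotein, had 1 and 2 against 0 and 0. Of 10 hepatocyte markers listed, 4 were analysed here, and they summed to 8.14 and 5.65 CPM with STAT3 shRNA and to 3.29 and 3.92 CPM with Ctrl shRNA, most of it HNF4A with STAT3 shRNA and TF with HNF4A in Ctrl shRNA. The libraries are therefore called by their labels and not as hepatocyte-like cells. Among markers of other cell types, those of bile duct and progenitor cells summed to 951 and 924 CPM with STAT3 shRNA and to 1205 and 1320 CPM with Ctrl shRNA, mostly from KRT7 and KRT19, while SOX9, PROM1 and CFTR stayed under 0.5 CPM. Fibroblast and mesenchymal markers (7 of 8 analysed) summed to 888 and 886 CPM against 958 and 971 CPM, mostly VIM. Immune markers (2 of 5) summed to 24.4 and 28.1 CPM against 10.9 and 14.6 CPM, mostly CD68, and endothelial markers (3 of 5) to 1.28 and 1.74 CPM against 1.75 and 1.20 CPM. What part these marker differences have in the results below was not tested.

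Among the 9 genes, CLDN1 and EPCAM were several-fold higher with STAT3 shRNA, CLDN7 was lower, and F11R was slightly lower. The other 5 did not pass the test. In such bulk libraries, fewer cells of a type and less RNA per cell cannot be told apart. All 9 passed the filter on low counts, 2 were called higher and 2 lower at an adjusted p under 0.05 (edgeR quasi-likelihood test, Benjamini-Hochberg over 15199 genes). Of all tested genes 35.5% were called, 16.8% higher and 18.7% lower, so 4 of 9 is near the share of any genes, and nothing is read from the count itself. CPM of the groups did not overlap for 7 of the 9, where 70.8% of all tested genes showed none. The median log2 fold change was 0.21 over the 9 genes and 0.022 over all tested genes.

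**Figure D1:**
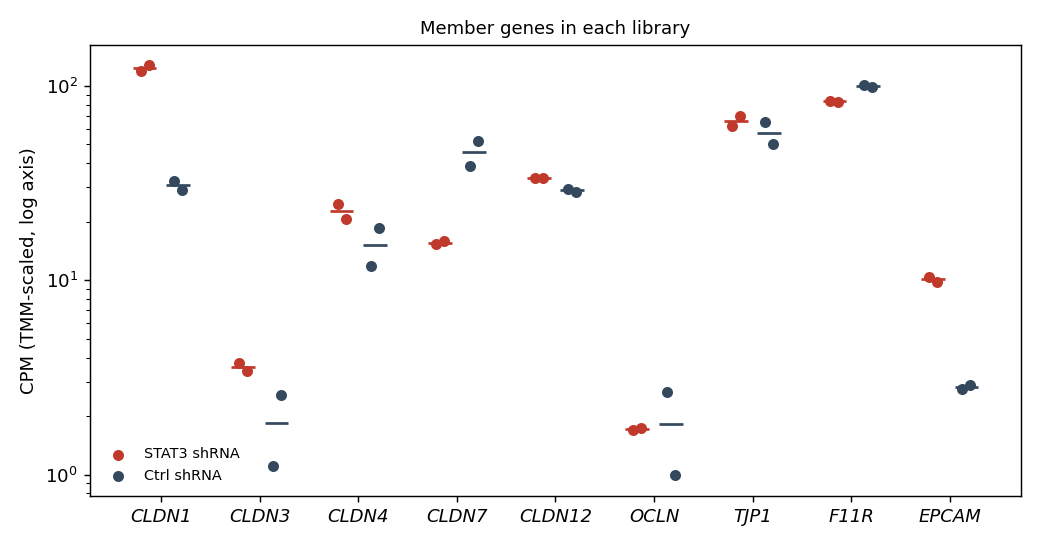
CPM (log axis) of the 9 genes in each library, STAT3 shRNA left and Ctrl shRNA right for each gene; points are libraries and short lines the means of 2. CLDN1 stands at 119 and 128 CPM with STAT3 shRNA against 32.5 and 28.96 CPM with Ctrl shRNA, and CLDN7 at 15.3 and 15.8 against 38.7 and 52.1 CPM.

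CLDN1 (ENSG00000163347.6; GRCh38 chromosome 3, 190305701 to 190322475, minus strand in GENCODE 29) encodes claudin-1, a sealing claudin of skin and liver and a co-receptor for hepatitis C virus. It had 3168 and 2347 reads with STAT3 shRNA against 613 and 554 with Ctrl shRNA, or 119 and 128 CPM against 32.5 and 28.96 CPM. Both STAT3 shRNA libraries lay far above both Ctrl shRNA libraries. The means were 123 ± 6.16 and 30.7 ± 2.50 CPM (SD, n = 2 each), a 4.01-fold rise with a log2 fold change of 2.002 ± 0.10 (SE; 95% interval 1.78 to 2.22) and an adjusted p of 4.51e-06 (edgeR). Of all tested genes 2.11% had a log2 fold change at least as high. The rise was called in all 15 alternative settings, with log2 fold changes of 1.82 to 2.07.

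CLDN7 (ENSG00000181885.18; chromosome 17, 7259903 to 7263983, minus strand) encodes claudin-7, found along the whole lateral membrane of epithelial cells. Its reads were 408 and 291 with STAT3 shRNA and 730 and 996 with Ctrl shRNA, that is 15.3 and 15.8 CPM against 38.7 and 52.1 CPM. The STAT3 shRNA pair was close together and low, while the Ctrl shRNA libraries were high and spread more. Means were 15.6 ± 0.360 and 45.4 ± 9.45 CPM (SD, n = 2 each), a 2.92-fold fall with a log2 fold change of -1.55 ± 0.15 (SE; 95% interval -1.88 to -1.21) and an adjusted p of 0.000145 (edgeR). On the authors' FPKM (fragments scaled to transcript length and library depth) the fall was smaller. There limma on log2(FPKM + 1) gave -1.16 (adjusted p = 0.0273). CLDN7 ends inside the span of ELP5, a gene of the opposite strand for a subunit of the Elongator complex, and their exons share 38 bases of the 2492 exon bases of CLDN7. ELP5 had 50.7 and 52.9 CPM with STAT3 shRNA and 53.3 and 60.4 CPM with Ctrl shRNA (log2 fold change -0.14, adjusted p = 0.310 in edgeR). Whether counting used strand is not given in the sources used here, so the reads of these genes may be mixed to a degree that was not tested. With reads of ELP5 and of the overlapping AC003688.1 (1 read in all) added to those of CLDN7, the log2 fold change was -0.60 (adjusted p = 0.00305).

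CLDN3 and CLDN4 encode claudin-3 and claudin-4, sealing claudins that also bind Clostridium perfringens enterotoxin. They lie 29271 bases apart on chromosome 7 (CLDN3 at 73768997 to 73770270 on the minus strand, CLDN4 at 73799542 to 73832693 on the plus strand). CLDN4 had 24.5 and 20.6 CPM with STAT3 shRNA against 11.8 and 18.6 CPM with Ctrl shRNA. CLDN3 was scarce, with 100 and 63 reads against 21 and 49, or 3.75 and 3.42 CPM against 1.11 and 2.56 CPM. In both genes the STAT3 shRNA libraries lay above both Ctrl shRNA libraries, and Ctrl shRNA replicate 2 lay closer to them than replicate 1. Means of CLDN4 were 22.6 ± 2.78 and 15.2 ± 4.80 CPM (SD, n = 2 each), with a log2 fold change of 0.57 ± 0.20 (SE; 95% interval 0.12 to 1.02) that did not pass the test (adjusted p = 0.0510, edgeR). Those of CLDN3 were 3.59 ± 0.232 and 1.84 ± 1.02 CPM, with a log2 fold change of 0.96 ± 0.38 (SE; 95% interval 0.10 to 1.82; adjusted p = 0.0781). Without Ctrl shRNA replicate 2 both were called (log2 fold changes 0.93 and 1.68 for CLDN4 and CLDN3, adjusted p = 0.000455 and 0.00340). Without replicate 1 the values were 0.25 and 0.46, neither called.

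Values for this pair changed with an offset for base composition. Transcripts of CLDN3 and CLDN4 were 69.2% and 57.5% G or C, and log2 fold changes of all tested genes fell with that share (Spearman rho -0.339 across genes, which share libraries and are not independent). Over the 81 tested genes within 1 point of CLDN3 the median log2 fold change was -0.44, and over the 893 genes near CLDN4 it was -0.16. With an offset for GC content in the edgeR fit both genes were called higher, CLDN3 at 1.43 (adjusted p = 0.00907) and CLDN4 at 0.75 (0.00624). CLDN7, at 59.6%, had neighbours at a median of -0.20 and stayed called with the offset at -1.32 (adjusted p = 3.04e-05). Whether the trend with GC content lies in the libraries or in the cells was not tested.

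CLDN12 (chromosome 7, 90383721 to 90513402, plus strand) encodes claudin-12, which lacks the PDZ-binding tail of other claudins and has been tied to calcium passage. It had 33.5 and 33.7 CPM with STAT3 shRNA and 29.5 and 28.3 CPM with Ctrl shRNA, without overlap. The log2 fold change of 0.21 ± 0.10 (SE) did not pass (adjusted p = 0.117, edgeR), and with the GC offset it was 0.014. The span of CLDN12 is shared on the same strand with GTPBP10 and CDK14, with 347 and 201 shared exon bases of 6741. CDK14, a cyclin-dependent kinase of Wnt signalling, had 68.5 and 62.7 CPM against 41.04 and 37.6 CPM (log2 fold change 0.74, adjusted p = 0.000704), and GTPBP10 had 0.16 (adjusted p = 0.260).

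**Figure D2:**
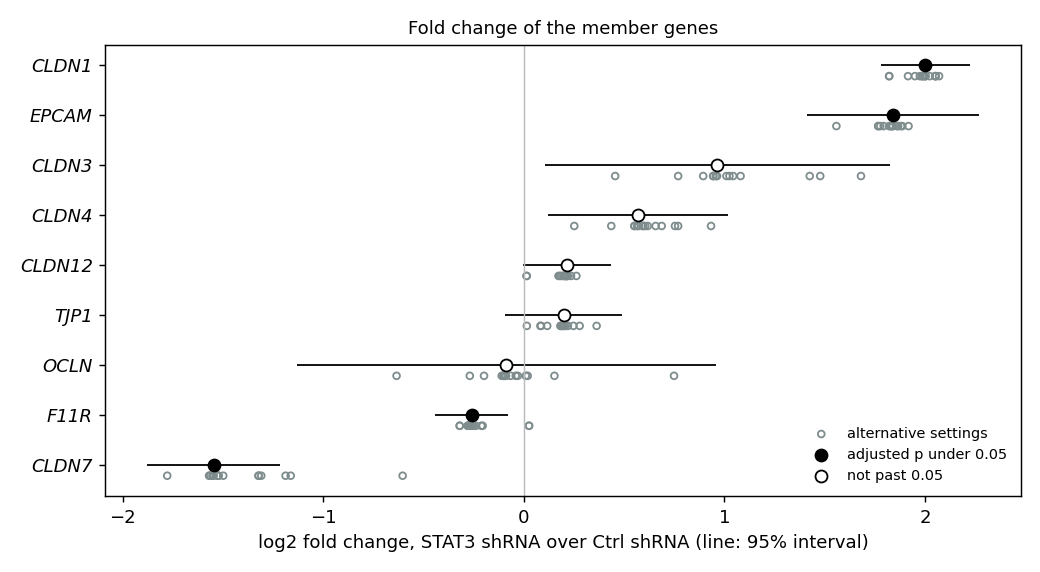
Log2 fold change of each gene (STAT3 shRNA over Ctrl shRNA) with its 95% interval from edgeR, filled where the adjusted p was under 0.05; open grey points below each line are the alternative settings. CLDN1, EPCAM and CLDN7 lie clear of 0 under every setting shown, while points of OCLN and F11R fall on both sides of 0.

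Starts of CLDN1 and CLDN7, the claudins that were called, are shown because the fitted changes of these genes ran in opposite directions. The windows are RefSeq sequences on GRCh38.p14, 250 bases before the start and 50 from it on, and 7 of the 9 genes had at least 1 (12 windows). Capitals mark letters of 4 motifs on either strand: TTCNNNGAA (bound by STAT proteins), CACCTG (an E-box bound by SNAI and ZEB repressors), GGGCGG (the GC box of SP factors) and TATAAA (the TATA box). No hit of one motif overlapped a hit of another.
CLDN1, chr3:190322397-190322696, minus strand: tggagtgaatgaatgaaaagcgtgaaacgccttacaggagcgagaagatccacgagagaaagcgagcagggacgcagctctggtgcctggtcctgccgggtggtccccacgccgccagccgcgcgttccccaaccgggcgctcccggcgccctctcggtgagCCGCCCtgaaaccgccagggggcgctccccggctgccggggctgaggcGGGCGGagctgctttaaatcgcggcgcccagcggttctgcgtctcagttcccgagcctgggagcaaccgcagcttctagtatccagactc
CLDN7, outer start, chr17:7263164-7263463, minus strand: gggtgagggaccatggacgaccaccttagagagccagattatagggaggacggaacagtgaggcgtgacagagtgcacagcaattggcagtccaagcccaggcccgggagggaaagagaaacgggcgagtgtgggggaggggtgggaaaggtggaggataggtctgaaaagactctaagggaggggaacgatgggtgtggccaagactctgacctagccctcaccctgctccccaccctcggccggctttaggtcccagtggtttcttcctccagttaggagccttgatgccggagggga
CLDN7, inner start, chr17:7262429-7262728, minus strand: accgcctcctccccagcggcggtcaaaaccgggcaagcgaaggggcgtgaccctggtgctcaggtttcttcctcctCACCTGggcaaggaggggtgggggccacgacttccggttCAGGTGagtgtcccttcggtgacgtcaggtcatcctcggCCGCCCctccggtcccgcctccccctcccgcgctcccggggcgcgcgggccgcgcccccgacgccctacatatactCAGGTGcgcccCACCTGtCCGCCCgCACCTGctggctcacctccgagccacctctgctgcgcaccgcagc

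The CLDN1 window held 2 GC boxes and none of the other 3 motifs. The outer CLDN7 window held no match, whereas the inner one held 5 E-boxes and 2 GC boxes. Over 35116 human windows of this length, 20.6% held the E-box letters, 45.0% the GC box, 11.5% the TATA letters and 7.66% TTCNNNGAA. Among the 7 genes with a window (F11R and EPCAM had none) TTCNNNGAA was found for CLDN12 only, in the window below, and TATAAA for none. CACCTG was found for 4 (CLDN3, CLDN7, OCLN and TJP1), in 5 of the 12 windows, and GGGCGG for 6, in 8 windows. The shares over human windows are per window and not per gene. A match is a description of letters and not of binding.
CLDN12, chr7:90403211-90403510, plus strand: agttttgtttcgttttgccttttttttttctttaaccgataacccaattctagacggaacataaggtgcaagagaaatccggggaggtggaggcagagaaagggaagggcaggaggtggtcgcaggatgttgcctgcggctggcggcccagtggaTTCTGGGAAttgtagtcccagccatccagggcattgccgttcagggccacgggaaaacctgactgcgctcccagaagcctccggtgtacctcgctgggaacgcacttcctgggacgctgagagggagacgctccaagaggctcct

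Levels of different genes were compared per length, on the FPKM scale deposited by the authors (fragments scaled to transcript length and library depth). With STAT3 shRNA the order was led by CLDN1 at 41.2 ± 2.48 FPKM (SD, n = 2), followed by CLDN7 at 27.3 ± 2.76 and F11R at 25.9 ± 1.70. The libraries of CLDN7 and F11R overlapped, so their order was not set beyond the spread. CLDN4 (13.97 ± 1.95), TJP1 (13.1 ± 1.47), CLDN12 (11.7 ± 0.106), EPCAM (7.86 ± 0.962), CLDN3 (3.59 ± 0.177) and OCLN (0.510 ± 0.0990 FPKM) came after, with overlap between CLDN4 and TJP1 only. With Ctrl shRNA CLDN7 led at 63.7 ± 19.1 FPKM, above F11R (25.4 ± 1.17) and TJP1 (11.4 ± 0.834). CLDN12 (10.2 ± 0.184), CLDN1 (9.78 ± 1.48) and CLDN4 (9.02 ± 2.93) overlapped with their neighbours, as did EPCAM (2.0 ± 0.127) and CLDN3 (1.78 ± 1.004), and OCLN was again lowest (0.515 ± 0.403 FPKM). The TJP1 libraries with Ctrl shRNA (11.94 and 10.76) overlapped those of CLDN1 (10.82 and 8.73) and CLDN4 (6.94 and 11.09) as well. CLDN1 thus stood at the top of the order with STAT3 shRNA and in the middle with Ctrl shRNA.

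The make-up of the claudin transcripts differed accordingly. CLDN1 took 41.2% and 43.0% of the summed FPKM of the 5 claudins in the STAT3 shRNA libraries, against 13.6% and 7.97% in the Ctrl shRNA libraries. CLDN7 took 26.5% and 29.3% with STAT3 shRNA, against 63.2% and 70.4% with Ctrl shRNA. Neither gene's shares overlapped between groups. The ratio of CLDN1 to CLDN7 was 1.55 and 1.47 with STAT3 shRNA and 0.216 and 0.113 with Ctrl shRNA. The sum itself overlapped, at 95.6 and 99.9 FPKM with STAT3 shRNA and 79.4 and 109.6 FPKM with Ctrl shRNA. These levels depend on the length behind the FPKM. For CLDN7 the counts and FPKM together imply a length of 622 and 561 bases with STAT3 shRNA and 755 and 641 bases with Ctrl shRNA, where its longest GENCODE 29 transcript has 1923. On CPM per kilobase of the longest transcript, CLDN1 took 57.9% on average with STAT3 shRNA and 19.6% with Ctrl shRNA, and CLDN7 took 13.2% and 51.4%. On that scale the sum did not overlap, at 60.3 and 62.0 with STAT3 shRNA and 41.5 and 49.8 with Ctrl shRNA. The order changed as well. CLDN1 (35.4) still led with STAT3 shRNA, but CLDN7 (8.09) stood below F11R (17.2) and CLDN12 (9.42) and beside TJP1 (8.29). With Ctrl shRNA the CLDN7 libraries (20.1 and 27.1) overlapped those of F11R (20.8 and 20.4).

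**Figure D3:**
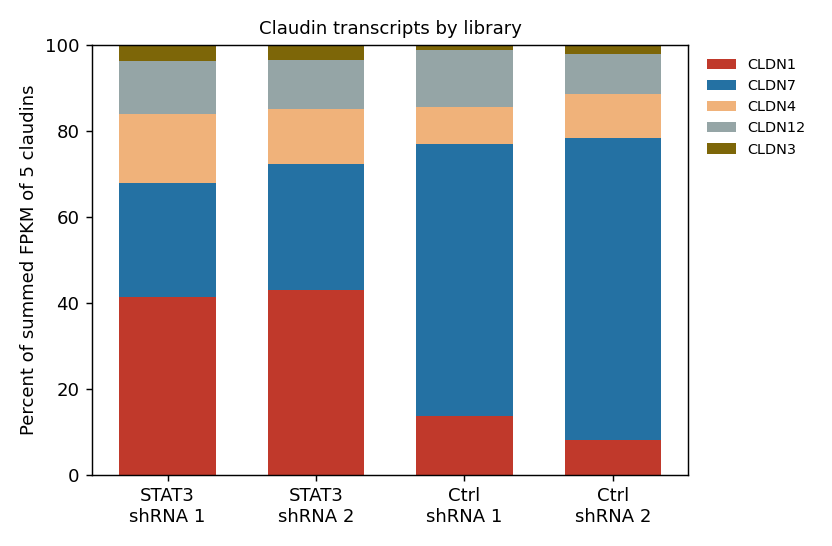
Share of each of 5 claudins in their summed FPKM (percent), 1 bar per library, STAT3 shRNA left and Ctrl shRNA right. CLDN1 fills 41.2% and 43.0% of the STAT3 shRNA bars against 13.6% and 7.97% of the Ctrl shRNA bars, and CLDN7 26.5% and 29.3% against 63.2% and 70.4%.

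OCLN (chromosome 5, 69492292 to 69558104, plus strand) encodes occludin, a tetraspan protein of the tight junction strand. It was scarce, with 45 and 32 reads with STAT3 shRNA against 50 and 19 with Ctrl shRNA, or 1.69 and 1.74 CPM against 2.65 and 0.993 CPM. The Ctrl shRNA libraries lay on either side of the STAT3 shRNA pair. The log2 fold change was -0.09 ± 0.46 (SE; adjusted p = 0.899, edgeR), and its 95% interval of -1.13 to 0.96 covers changes of about 2-fold either way at this depth. Leaving out Ctrl shRNA replicate 1 gave 0.75, and leaving out its replicate 2 gave -0.63. The partial copy OCLNP1 had at most 3 reads in a library, and adding them gave -0.030.

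F11R (chromosome 1, 160995211 to 161021348, minus strand) encodes junctional adhesion molecule A, an immunoglobulin-type protein that helps build tight junctions and cell polarity. It had 83.7 and 82.7 CPM with STAT3 shRNA against 100.7 and 98.6 CPM with Ctrl shRNA, and each pair was tight. Means were 83.2 ± 0.717 and 99.7 ± 1.55 CPM (SD, n = 2 each), a fall of 0.26 ± 0.081 (SE) on the log2 scale with an adjusted p of 0.0346 (edgeR). This small call held in 8 of 16 alternative settings. It held with the GC offset (-0.32, adjusted p = 0.00446) and without either Ctrl shRNA library (adjusted p = 0.00703 and 0.00933). Without STAT3 shRNA replicate 1 or 2 the log2 fold change was as large (-0.27 and -0.25) but was not called (adjusted p = 0.263 and 0.292). On FPKM the groups overlapped, at 24.7 and 27.1 with STAT3 shRNA and 24.6 and 26.2 with Ctrl shRNA, and limma on log2(FPKM + 1) gave a log2 fold change of 0.026. F11R shares 1853 of its 5066 exon bases with AL591806.3, a longer gene of the same strand, and the sum of both genes' reads gave -0.20 on the log2 scale (adjusted p = 0.0829).

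TJP1 (chromosome 15, 29699367 to 29968865, minus strand) encodes ZO-1, the scaffold that binds claudins, occludin and F11R on the cytoplasmic side. It had 62.2 and 69.6 CPM with STAT3 shRNA against 64.8 and 49.9 CPM with Ctrl shRNA, and the groups overlapped. Its fitted difference of 0.20 ± 0.13 (log2, SE; 95% interval -0.091 to 0.49) did not pass (adjusted p = 0.259, edgeR). Without Ctrl shRNA replicate 1 it was called higher (0.36, adjusted p = 0.00549), and without replicate 2 it was 0.016.

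EPCAM (ENSG00000119888.10; chromosome 2, 47345158 to 47387601, plus strand) rose with STAT3 shRNA. It had 277 and 180 reads with STAT3 shRNA against 52 and 55 with Ctrl shRNA, or 10.4 and 9.78 CPM against 2.76 and 2.88 CPM. Both pairs were tight and far apart. Means were 10.1 ± 0.430 and 2.82 ± 0.0836 CPM (SD, n = 2 each), a 3.58-fold rise with a log2 fold change of 1.84 ± 0.19 (SE; 95% interval 1.41 to 2.27) and an adjusted p of 0.000224 (edgeR). The call held in all 15 alternative settings (log2 fold changes 1.56 to 1.92). On FPKM it was at 8.54 and 7.18 with STAT3 shRNA and 2.09 and 1.91 with Ctrl shRNA. Of 6 bile duct and progenitor markers 3 were tested, and 2 rose with EPCAM while 1 fell (median log2 fold change 0.59). Over all tested genes 16.8% were called higher and 18.7% lower. KRT19 rose by 0.59 and SOX4 by 0.67 and KRT7 fell by 0.64 on the log2 scale (adjusted p = 0.00370, 0.00234 and 0.000572, edgeR). SOX9, PROM1 and CFTR, not tested, had 9 and 9, 7 and 2, and 12 and 6 reads with STAT3 shRNA, against 3 and 4, 0 and 1, and 3 and 2 reads with Ctrl shRNA. The part of these markers in the rise of EPCAM was not tested. Of the claudins known to bind EPCAM, CLDN1 was 4.01-fold higher and CLDN7 2.92-fold lower in the same libraries.

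Of 7 genes listed as related to EPCAM, 4 rose and 3 did not pass, where 16.8% of all tested genes were called higher (median log2 fold change 0.43). SPINT2 encodes an inhibitor of membrane serine proteases that protects EPCAM from cleavage. It rose to 2.66 and 2.34 CPM with STAT3 shRNA, against 0.636 and 0.627 CPM with Ctrl shRNA (log2 fold change 1.98 ± 0.37, adjusted p = 0.00414 in edgeR). It was scarce, with 71 and 43 reads against 12 and 12. On FPKM it had 11.65 and 13.32 with STAT3 shRNA, and the Ctrl shRNA libraries lay apart at 0.63 and 5.99. Its relative SPINT1 rose by 0.67 (adjusted p = 0.0287), the hyaluronan receptor CD44 by 0.38 (0.0107) and the tetraspanin TSPAN8 by 0.43 (0.0484), all on the log2 scale. CD44 ran the other way on FPKM, with 60.3 and 52.4 with STAT3 shRNA against 63.6 and 77.4 with Ctrl shRNA. For ST14, the protease matriptase that SPINT1 and SPINT2 inhibit, the log2 difference was 0.44 (adjusted p = 0.174).

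No other claudin was called by edgeR. Of 14 further claudin-family genes analysed, 4 passed the low-count filter. CLDND1 was the 1 gene of these with an unadjusted p under 0.05, and DESeq2 called 0 of them. CLDND1, a claudin domain protein, had 45.2 and 44.02 CPM with STAT3 shRNA and 37.6 and 38.1 CPM with Ctrl shRNA (log2 fold change 0.24, adjusted p = 0.0753 in edgeR). For CLDN15, a cation pore of the intestine, the difference was -0.26 on the log2 scale (0.239), for CLDN23 -0.67 (0.304) and for CLDN18 -0.19 (0.831). The other 10, among them CLDN2, CLDN5, CLDN6, CLDN9 and CLDN14, had between 0 and 8 reads in any library and were not tested.

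Among other membrane proteins of the tight junction 2 of 6 tested genes rose and 1 fell (median log2 fold change 0.55). For all tested genes the shares were 16.8% called higher and 18.7% lower. CXADR, the coxsackievirus and adenovirus receptor, rose by 0.57 and ESAM, an adhesion molecule best known from endothelium, by 0.73 on the log2 scale (adjusted p = 0.0119 and 0.0289, edgeR). CLMP, a CXADR-like adhesion protein, fell to 84.6 and 85.4 CPM with STAT3 shRNA, against 135 and 126 CPM with Ctrl shRNA (log2 fold change -0.62, adjusted p = 0.000762). The 3 endothelial markers analysed were near 0 and did not run one way. CDH5 had 21 and 16 reads with STAT3 shRNA against 33 and 20 with Ctrl shRNA, VWF had 10 and 15 against 0 and 3, and TEK had 3 and 1 against 0 and 0.

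Of 12 other tight junction scaffolds tested, 4 rose, 1 fell and 7 did not pass (median 0.22). Among all tested genes 16.8% were called higher and 18.7% lower. Cingulin (CGN), which links ZO proteins to actomyosin, was at 8.40 and 9.51 CPM with STAT3 shRNA against 3.87 and 4.39 CPM with Ctrl shRNA (log2 fold change 1.11, adjusted p = 0.00257 in edgeR). MAGI3, a PDZ scaffold, rose by 0.92 (0.00112) and AMOTL1, an angiomotin that binds YAP, by 0.64 (0.000780) on the log2 scale. TJP3, the scaffold ZO-3, stood at 0.098 on that scale (0.550).

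In the polarity complexes that place the junction, 4 of 16 tested genes rose, 2 fell and 10 did not pass (median 0.30). MPP5, the Crumbs complex scaffold PALS1, rose by 0.76 (adjusted p = 0.000540), DLG1 by 0.34 (0.0230) and PARD6B, a PAR complex subunit, by 1.51 (0.00563) on the log2 scale in edgeR. SCRIB, a basolateral scaffold, fell by 0.53 (0.00133). Over these 4 lists 10 of 38 tested genes rose and 4 fell, where 16.8% of all tested genes were called higher and 18.7% lower. The called share was thus 14 in 38, where 35.5% of all tested genes were called. The median log2 fold change over the lists was 0.24, against 0.022 over all tested genes. The number called higher depended on the libraries, at 5 without STAT3 shRNA replicate 2, 7 without replicate 1, and 14 without either Ctrl shRNA library. With the GC offset it was 16.

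**Figure D4:**
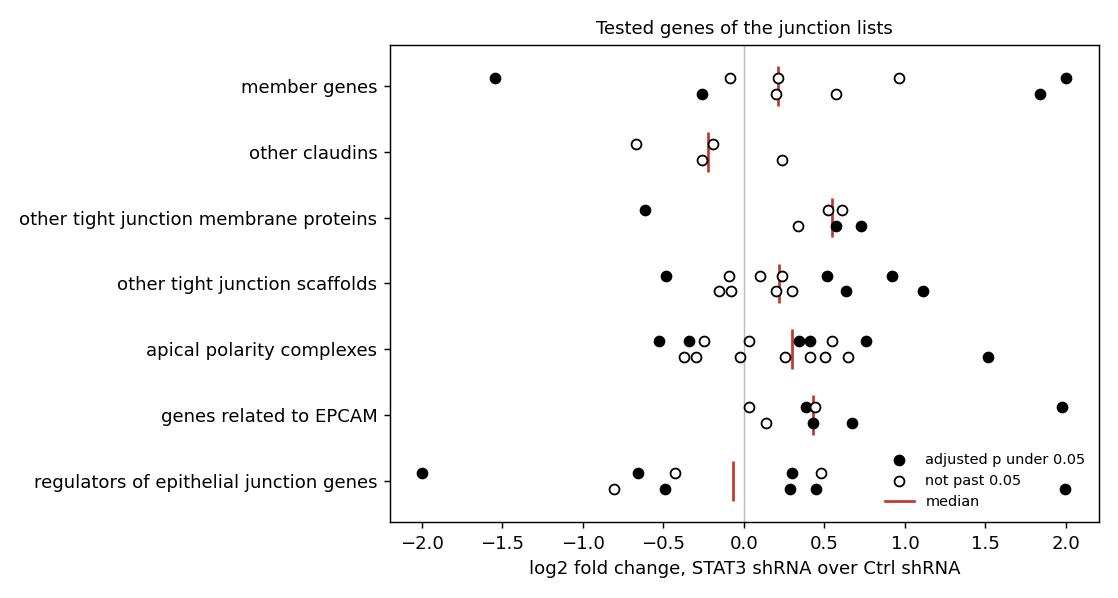
Log2 fold change (STAT3 shRNA over Ctrl shRNA) of every tested gene in the 9-gene set and 6 lists of junction genes, filled where the adjusted p was under 0.05, with the median of each list as a red line. Medians run from -0.23 for the other claudins to 0.55 for the other membrane proteins, and the 9 genes have both the highest value (CLDN1, 2.002) and a low one (CLDN7, -1.55).

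Known regulators of junction genes, all transcription factors but ESRP2, moved in both directions, with 4 higher and 3 lower of 10 tested (median -0.070), where 16.8% of all tested genes were called higher and 18.7% lower. ZEB2, a repressor of epithelial genes, fell to 1.31 and 1.63 CPM with STAT3 shRNA, against 5.99 and 5.70 CPM with Ctrl shRNA (log2 fold change -1.998, adjusted p = 0.000656 in edgeR). SNAI2, another such repressor, fell by 0.66 (0.0165), and ESRP2, an epithelial splicing regulator, by 0.49 (0.00262) on the log2 scale. HNF4A, a liver and gut factor that is also on the hepatocyte list, was at 7.20 and 4.95 CPM against 1.27 and 1.78 CPM (log2 fold change 1.997, adjusted p = 0.00131). ZEB1, the paralog of ZEB2 and named here after its value was seen, rose by 0.45 (0.0427), which is the other direction. Their part in the levels of the claudins or EPCAM was not tested.

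Among genes with a mean of at least 5 CPM, 3 outside the 9 are given as closest to CLDN1 in pattern over the 4 libraries, by Euclidean distance of log2 CPM centred over the libraries. ADGRB2, an adhesion G protein-coupled receptor, was nearest (distance 0.0932), with 34.4 and 34.2 CPM with STAT3 shRNA and 9.28 and 7.84 CPM with Ctrl shRNA. ATP8A1, a phospholipid flippase, had 22.1 and 24.3 CPM against 6.15 and 6.06 CPM (distance 0.143). RAB27B, a GTPase of vesicle secretion, had 31.7 and 34.9 CPM against 10.1 and 8.57 CPM (distance 0.180).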

How the data were processed

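RNA-seq of 4 libraries labelled HepG2 was used, 2 per group. The authors deposited a table of raw read counts and a table of FPKM, both by gene, as their file names and headers say. The sources used here do not give the aligner, counter, build, annotation, library kit or use of strand. Columns were matched to samples by name, with "Si" read as STAT3 shRNA. The 9 genes and all lists were chosen with earlier results of these data known.

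Counts were tested in R 4.3.3 with edgeR 4.0.16 (TMM scaling; filterByExpr, which kept 15199 of 27452 genes; the two-sided glmQLFTest on a glmQLFit with no term but group; Benjamini-Hochberg, threshold 0.05). CPM errors are SDs of 2 libraries, and SEs and 95% intervals come from the quasi-likelihood F. A member's read number ran from 19 to 3168 in a library, which limits the precision of the scarce genes. Alternatives were RLE and upper-quartile scaling, other filters, a GC offset (lowess per library; 95.7% of tested genes had a GC value), a block for replicate number, fits with 1 library omitted, DESeq2 1.42.0, limma 3.58.1 on log2(FPKM + 1) and log2(FPKM + 0.1), and a threshold of 0.01. The sum of F11R with a gene that shares its exons, the sum of OCLN with its partial copy, and CPM per kilobase were added after seeing the data. Positions, overlaps and GC come from GENCODE 29, whose build may differ from that of the authors. The edgeR steps were tested on simulated data.

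Genes named were all 9, STAT3, the 4 called genes of smallest p in each junction list, every tested claudin, and the 3 genes of at least 5 CPM nearest in pattern to the called member of smallest p. KRT7, KRT19, SOX4, ST14, TJP3, VIM, CD68 and CDH5 were named as well after their values were seen, and so were markers of cell types. Of the genes in these lists, some are counted but not reported here by name.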

Additional observations from a re-analysis of the deposited data

How the results depend on the processing

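CLDN1, CLDN7 and EPCAM kept their direction and call under every alternative run, and CLDN12 stayed uncalled. The log2 fold change of F11R lost its call with upper-quartile scaling (-0.21), at a threshold of 0.01 (-0.26) and when summed with AL591806.3 (-0.20), and turned to 0.026 and 0.027 with limma on log2(FPKM + 1) and log2(FPKM + 0.1). The log2 fold change of CLDN4 was called with upper-quartile scaling (0.62), without a filter (0.57), at 5 CPM in 2 libraries (0.59) and with the GC offset (0.75), and that of CLDN3 without a filter (0.96) and with the GC offset (1.43). OCLN, never called, was at 0.020 and 0.15 with limma on the 2 FPKM scales. The causes were not tested. When single libraries were omitted, the log2 fold change lay between the following bounds: 1.92 to 2.05 for CLDN1, 0.46 to 1.68 for CLDN3, 0.25 to 0.93 for CLDN4, -1.78 to -1.32 for CLDN7, 0.18 to 0.22 for CLDN12, -0.63 to 0.75 for OCLN, 0.016 to 0.36 for TJP1, -0.28 to -0.25 for F11R and 1.78 to 1.88 for EPCAM. Members called higher then numbered 2 to 4 and lower 1 to 2, and wider tight junction genes 5 to 14 higher and 2 to 6 lower.

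Replicate numbers do not pair the libraries by the labels, and differences between replicates 1 and 2 were not shared by the groups (correlation -0.014 over 11068 genes). With the replicate number as a block CLDN3 (1.04) and CLDN4 (0.60) were called higher, F11R lost its call (-0.26), OCLN was at 0.010, and 4 members were called higher and 1 lower. With the block and the GC offset together CLDN3 was at 1.48 and CLDN4 at 0.77, with 4 members and 16 wider genes called higher.

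Members called higher numbered 4 without a filter and with the GC offset, and 3 with upper-quartile scaling and at 5 CPM in 2 libraries, against 2. Members called lower numbered 1 with upper-quartile scaling, with both FPKM scales and at a threshold of 0.01, against 2. Wider tight junction genes called higher numbered 16 at 5 CPM in 2 libraries and with the GC offset, against 10. They numbered 15 with upper-quartile scaling, 13 without a filter and 9 with DESeq2. With limma on log2(FPKM + 1) and log2(FPKM + 0.1) they numbered 5 and 4, and at a threshold of 0.01 they numbered 6.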
